A study of Mus musculus with 22 samples.

Results

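Mouse embryonic germ (EG) cell lines derived directly in 2i medium were compared with embryonic stem (ES) cell lines grown in 2i, over the mRNA levels of 19938 genes. The 9 arrays were chosen by their titles, 4 of EG 2i lines and 5 of ES 2i lines, out of 22 arrays of the study. EG lines came from primordial germ cells of embryos at day 8.5, and all lines came from 129SvEv mice crossed with the Oct4-delta-PE-GFP reporter strain, a mixed background that both groups share. In 2i, cells grew on laminin in N2B27 medium that held leukaemia inhibitory factor (LIF), PD0325901, which inhibits MEK, and CHIR99021, which inhibits GSK3. The other 13 arrays held 4 EG lines started in fetal calf serum (FCS) for 48 hours and then moved to 2i (EG 2is), 4 EG lines in FCS and 5 ES lines in FCS, the FCS cultures with LIF and on mouse embryonic fibroblast feeders. ES lines were switched between the cultures once established, so ES samples of the 2 cultures may be the same line. The cell type label of all 10 ES arrays read EGCs, against their titles and source names, and the titles were used.

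Embryonic germ cells are pluripotent lines that form when primordial germ cells, the precursors of eggs and sperm, are cultured with growth factors, and ES cells are derived from the inner cells of the blastocyst. Both express the same core pluripotency factors and both can contribute to chimaeras. Primordial germ cells erase most DNA methylation, imprints included, over the course of their development, so lines of germ cell and of embryo origin may start from different epigenetic states. How far this erasure had gone in the day 8.5 cells was not measured here. 2i blocks the MEK/ERK signal that drives differentiation and relieves repression of Wnt target genes by GSK3, and both kinds of line are then held in a naive state.

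The EG 2i lines were 3 females and 1 male, all of batch 1. The ES 2i lines were 2 females and 3 males, with lines 1 and 2 in batch 1 and lines 3, 4 and 5 in batch 2, so only ES arrays inform the batch term, and batch cannot be told apart from which ES lines each batch held. Deposited values were log2 RMA expression values between 3.63 and 13.9, and 0 pairs of arrays were identical. The male-specific gene Eif2s3y stood at 4.73 ± 0.08 (SD, n = 10) in arrays labelled female and 8.35 ± 0.36 (SD, n = 12) in arrays labelled male over the whole study, and 23.7% of genes had a mean below the highest female value, which serves as a measure of background. Beyond line numbers the labels do not say that samples were separate cultures, so p-values speak only to the spread seen here, which may be technical. The number of arrays limits the precision.

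Both groups had the levels of pluripotent cells. Pou5f1, which encodes the core factor OCT4, had a mean of 11.53 ± 0.12 (SD) over the 4 EG 2i lines and 11.57 ± 0.10 over the 5 ES 2i lines. Nanog was at 12.50 ± 0.17 and 12.36 ± 0.10, and Sox2 at 11.69 ± 0.18 and 11.45 ± 0.15. The fitted differences, −0.07 for Pou5f1, 0.07 for Nanog, 0.18 for Sox2, 0.07 for Esrrb and −0.16 for Klf4, did not pass the test (limma adjusted p = 0.665, 0.873, 0.233, 0.813 and 0.723). Of the germ cell markers, Nanos3 was near the background of 4.88 (4.99 ± 0.13 and 4.85 ± 0.21). Prdm1 was above it but far below Pou5f1 (5.39 ± 0.27 and 5.87 ± 0.30), whereas Dazl was at 10.06 ± 0.51 and 8.68 ± 0.53. The level of the marker Ddx4 is not given. Of 23 feeder fibroblast markers 0 were called, and their mean level was 5.84 to 5.96 in EG 2i and 5.80 to 5.97 in ES 2i lines. Among the defining feeder genes, Dcn, Lum and Postn lay between 4.51 and 4.73 in both groups' means, and the levels of the others are not given. The mean of the 23 markers was above the background of 4.88 in every line, so Dcn, Lum and Postn do not stand for the whole list. Of other lineage regulators, Sox17 was at 4.94 ± 0.12 and 4.72 ± 0.08, Elf5 at 4.70 ± 0.13 and 4.78 ± 0.06, and Sox1 at 5.81 ± 0.11 and 5.73 ± 0.11. Sox17 and Elf5 were near background, and Sox1 was above it, though far below Pou5f1. The levels of further regulators of these lineages are not given.

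A gene was called at an adjusted p under 0.05 in limma, fitted to all 22 arrays with terms for group, batch and sex. Between EG 2i and ES 2i, 742 of 19938 genes were called, or 3.72%. Of these 240 (1.2%) were higher in EG 2i and 502 (2.52%) lower, while the median difference over all genes was 0.003 on the log2 scale. Most calls were small: the median size was 0.49, a 1.40-fold difference, and 39 genes differed by at least 2-fold, 18 of them higher and 21 lower. In 595 called genes (2.98% of those tested) the arrays of the groups did not overlap, and in 147 they did. Non-overlap by itself was found in 1931 genes (9.69%). Of the called genes 69 also differed by sex in 2i, in a fit with a sex term in each culture, as did 1031 of all 19938 genes (5.17%). The split between higher and lower calls moved with the scaling of the arrays: 32.3% of calls were higher as deposited, 46.5% after quantile normalization was applied again and 19.8% after each array was centred on its median.

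**Figure D1:**
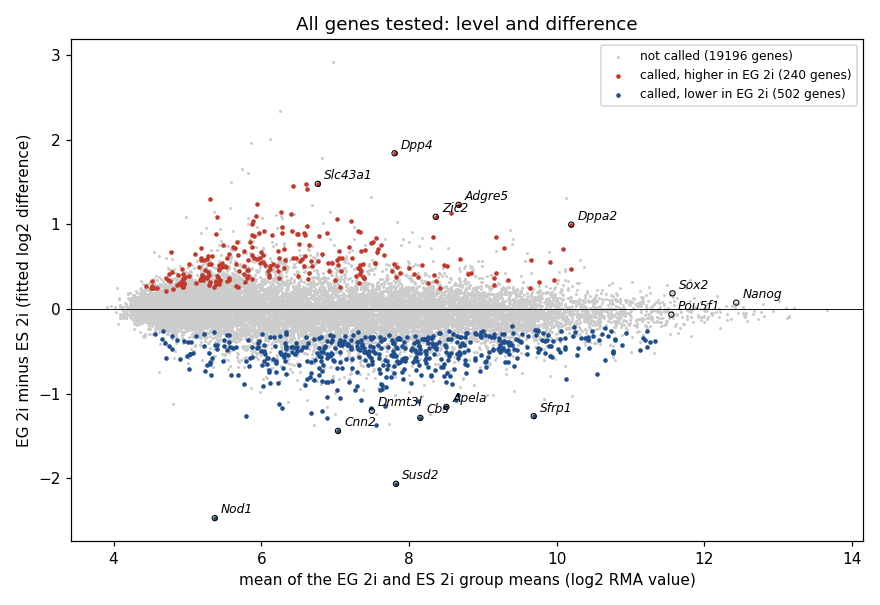
Fitted log2 difference between EG 2i and ES 2i (vertical axis) against the mean of the group means (horizontal axis, log2 RMA value), 1 point per gene. The 240 genes called higher are red and the 502 called lower blue, with Nod1 the lowest point at −2.47 and Dpp4 the highest called point at 1.84, and the pluripotency genes Pou5f1, Nanog and Sox2 lie near 0 at high levels.

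The count rests on more than the 9 arrays. With only the EG 2i and ES 2i arrays in the fit 15 genes were called, with batch 1 arrays alone 201 (1.01%), and without the batch term 1758. All 742 called genes kept their direction in batch 1 arrays alone, where the EG 2i lines were set against ES 2i lines 1 and 2, and 171 of them were also called there, among them 12 of the 24 leading genes. These arrays are part of the main fit, in which all EG arrays are of batch 1. The kept direction is therefore no separate check. Leading genes are the 12 largest called rises and the 12 largest called falls whose arrays did not overlap.

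Nod1, the intracellular sensor of bacterial peptidoglycan, was the gene with the largest fall. Its level was 4.37, 4.53, 4.74 and 4.38 in EG 2i lines 1 to 4, near background, and 7.41, 6.66, 5.33, 5.83 and 5.96 in ES 2i lines 1 to 5. The highest EG line stayed below the lowest ES line, and the ES lines of batch 1 were higher than those of batch 2. The fitted difference was −2.47 (SE 0.19, adjusted p = 1.1e-06, limma), and the plain difference of the group means was −1.73. All EG 2i values lay below 4.88, the highest value of Eif2s3y in female arrays, so the size of the difference is set in part by the background and no fold is given. Nod1 was also the only gene called between the batches (batch 2 minus batch 1, −1.19, adjusted p = 0.00698, 0.00502% of genes). With batch 1 arrays alone its difference was −2.58 (adjusted p = 5.13e-05).

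Dpp4, the cell surface dipeptidase also called CD26, showed the largest rise among called genes. EG 2i lines stood at 8.60, 8.68, 8.82 and 9.25, and ES 2i lines at 6.69, 8.11, 6.28, 6.27 and 6.52. Every EG line was above every ES line, and ES 2i line 2 stood apart from the other 4 ES lines. The fitted difference was 1.84 (SE 0.30, adjusted p = 0.00373, limma), or 3.58-fold.

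The 250 bases before a listed start site of Nod1 and of Dpp4 are shown because these genes had the largest fall and the largest called rise. The gene positions used elsewhere in this report end at 54972674 for Nod1 and 62412315 for Dpp4, within the windows. The last bases of each window therefore lie inside the gene as positioned there. They are from RefSeq (mouse build GRCm38.p6, minus strand for both), written 5′ to 3′ with each CpG, the dinucleotide CG that can carry DNA methylation and reads the same on both strands, in capitals.
Nod1 (chr6:54972613-54972862): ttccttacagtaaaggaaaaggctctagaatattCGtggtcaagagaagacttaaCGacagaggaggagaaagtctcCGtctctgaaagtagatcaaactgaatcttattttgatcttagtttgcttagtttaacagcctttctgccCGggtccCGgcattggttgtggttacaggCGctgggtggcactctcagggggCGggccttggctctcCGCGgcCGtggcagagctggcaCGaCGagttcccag
Dpp4 (chr2:62412232-62412481): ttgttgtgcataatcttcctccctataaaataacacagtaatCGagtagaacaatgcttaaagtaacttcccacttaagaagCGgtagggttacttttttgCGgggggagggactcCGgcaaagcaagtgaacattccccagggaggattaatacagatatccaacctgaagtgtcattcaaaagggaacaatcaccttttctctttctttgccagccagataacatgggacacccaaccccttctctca
The Nod1 window held 12 CpG and the Dpp4 window 4. Nod1 has 2 entries with different starts in the table, and the one with more CpG is shown. Over 15563 tested genes with an entry the median was 12 CpG (25th percentile 4, 75th percentile 21), and 94.2% of windows held at least 1. DNA methylation was not measured by these arrays.

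Slc43a1, a transporter of large neutral amino acids, was at 7.89, 7.09, 7.29 and 7.71 in EG 2i and at 5.86, 6.13, 5.80, 6.08 and 6.32 in ES 2i. Both groups were tight and far apart, with a difference of 1.48 (SE 0.18, adjusted p = 3.57e-04, limma). Porcn, the X-linked acyltransferase that attaches the lipid Wnt proteins need for secretion, was at 7.41, 7.92, 7.13 and 7.34 against 5.93, 6.49, 4.77, 5.72 and 5.84. Its difference was also 1.48 (SE 0.30, adjusted p = 0.0108). Zic2, a zinc finger transcription factor of the early epiblast and neural plate, was at 8.86 ± 0.18 (SD, n = 4) against 7.86 ± 0.32 (SD, n = 5), a difference of 1.09 (adjusted p = 0.0233).

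The remaining leading rises were Hal, the first enzyme of histidine breakdown (1.45), Otud6a, an X-linked deubiquitinase (1.41), and Prkch, a protein kinase C isoform (1.30, or 0.71 with the mean of its 2 probe sets, adjusted p = 0.0144). Arhgef26 differed by 1.24, Adgre5, the adhesion receptor CD97, by 1.23, and Obi1, an E3 ubiquitin ligase, by 1.14. Pde3b, a cyclic nucleotide phosphodiesterase, differed by 1.12 and Neto2, an accessory subunit of kainate receptors, by 1.10. Their adjusted p ranged from 0.00442 for Obi1 to 0.0491 for Adgre5. Prkch was at 4.59 ± 0.30 (SD, n = 5) in ES 2i, near the background of 4.88, so the size of its difference is set in part by the background. Otud6a came closest to overlap, with EG 2i line 4 at 6.16 and ES 2i line 1 at 6.15, while the other EG lines stood between 7.39 and 8.37. Otud6a also differed by sex in 2i (female minus male 1.03, limma adjusted p = 0.0204) and was not called without the sex term (0.0517). Single lines decided some of these calls. Hal and Pde3b were no longer called without ES 2i line 1 (adjusted p = 0.0616 and 0.0703). Otud6a was not called without EG 2i line 2, EG 2i line 3 or ES 2i line 1 (0.0623 to 0.109), nor Zic2 without EG 2i line 3, ES 2i line 1 or ES 2i line 2 (0.0593 to 0.105). Adgre5 lost its call without any 1 of 7 lines, all but ES 2i lines 2 and 3 (0.0612 to 0.215).

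Among the falls, Susd2, a membrane protein with a sushi domain, followed Nod1. It was at 6.53, 6.65, 5.91 and 7.92 in EG 2i and at 8.72, 8.78, 8.72, 9.19 and 9.06 in ES 2i. The ES lines were close together and EG 2i line 4 was the highest of the scattered EG lines. The difference was −2.07 (SE 0.37, adjusted p = 0.006, limma), or 4.19-fold lower. Its plain mean difference was −2.14, and in batch 1 arrays alone it was −1.85 (adjusted p = 0.0677).

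Sfrp1, a secreted antagonist of Wnt ligands, was at 9.03, 9.33, 8.77 and 9.35 in EG 2i and at 10.26, 10.42, 9.68, 10.38 and 10.56 in ES 2i, a difference of −1.27 (SE 0.23, adjusted p = 0.00584, limma). Apela, which encodes the apelin receptor ligand ELABELA, was at 8.16, 7.60, 7.53 and 8.16 against 9.02, 9.04, 8.73, 9.47 and 9.48, a difference of −1.16 (SE 0.20, adjusted p = 0.00444). Neither gene overlapped between the groups, and ES 2i line 3 was the lowest ES line for both. Pla1a, a secreted phosphatidylserine phospholipase, differed by −1.23 (adjusted p = 0.0018). The actin-binding gene Cnn2 (−1.44, adjusted p = 0.00405) and the unconventional myosin Myo1c (−1.15, adjusted p = 0.00343) were also lower. St8sia5, a ganglioside sialyltransferase, differed by −1.27 (adjusted p = 0.0168), Slc16a9, a monocarboxylate transporter family member, by −1.29 (0.0221) and Lrrc31, a leucine-rich repeat gene, by −1.17 (0.0191). Without ES 2i line 1 St8sia5 was no longer called (adjusted p = 0.0518). With the mean of its 2 probe sets Slc16a9 differed by −0.62 (adjusted p = 0.0358). Lrrc31 was not called without ES 2i line 2 (0.0545), nor Slc16a9 without EG 2i line 4 or ES 2i line 1 (0.0512 and 0.0833).

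**Figure D2:**
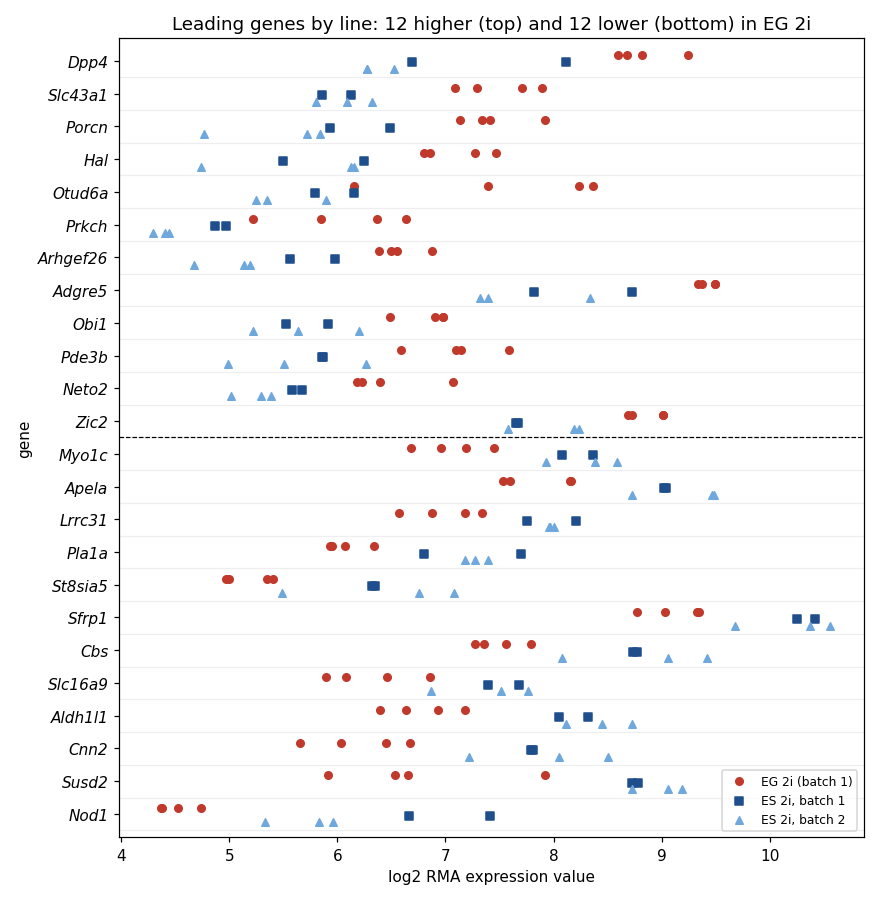
Log2 RMA value (horizontal axis) of the 12 largest called rises (top) and the 12 largest called falls (bottom) in each of the 4 EG 2i lines (red circles) and the 5 ES 2i lines (dark squares for batch 1, light triangles for batch 2), 1 point per line. The groups do not overlap for any of these genes, which the rule for choosing them required, and Otud6a leaves the smallest gap, with 6.16 in EG 2i line 4 against 6.15 in ES 2i line 1.

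In one-carbon and sulphur amino acid metabolism 3 of 16 genes (18.8%) were lower and 0 higher, against 2.52% lower among all genes. The median of the list was −0.238, and 14 of 16 were negative, and 3 were called lower under both other scalings. Expressed genes leaned lower as well. With only the 9791 genes above 6 in at least 4 arrays in the fit, 199 were called higher and 549 lower, and the median was −0.05. Of 9 housekeeping genes 0 were called and 8 were negative, with a median of −0.11. Cbs, which joins homocysteine and serine to cystathionine, was at 7.56, 7.27, 7.35 and 7.79 in EG 2i and at 8.73, 8.78, 8.08, 9.42 and 9.06 in ES 2i. Cth, which cleaves cystathionine to cysteine, was at 9.96, 10.41, 9.91 and 10.49 against 10.85, 11.11, 10.57, 10.93 and 10.97. Neither gene overlapped between the groups. Their differences were −1.29 (SE 0.22, adjusted p = 0.00412, limma) and −0.77 (SE 0.12, adjusted p = 0.00211), and both were called in batch 1 arrays alone (0.0117 and 0.032). Mtr, the methionine synthase that remethylates homocysteine, differed by −0.65 (adjusted p = 0.0107), with overlap through ES 2i line 3 at 8.49, and was not called without ES 2i line 2 (0.0536). Outside this list, Aldh1l1, the folate enzyme that oxidizes 10-formyltetrahydrofolate, was among the leading falls: 6.93, 6.39, 6.63 and 7.18 in EG 2i against 8.05, 8.32, 8.12, 8.73 and 8.45 in ES 2i, with a difference of −1.37 (SE 0.23, adjusted p = 0.00428). Bhmt, Dmgdh and Gldc of the list had differences of −0.32, −1.07 and −0.64 that did not pass the test (adjusted p = 0.831, 0.257 and 0.142).

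Glutathione genes showed 4 of 26 lower (15.4%, against 2.52% of all genes) and 0 higher, with a median of −0.063. They included Mgst3 (−0.42, adjusted p = 0.0325), Gsta4 (−0.38, 0.0381), both glutathione transferase family members, and Nqo1, a quinone reductase (−0.58, 0.0452). The call of each ended without any 1 of 5 lines for Mgst3 (0.0507 to 0.0687) and Gsta4 (0.0515 to 0.147), and of 7 lines for Nqo1 (0.0561 to 0.0933). In cholesterol synthesis 2 of 19 were lower (10.5%) and 0 higher, the median was −0.243, and 17 of 19 were negative, as were 8 of 9 housekeeping genes. Pmvk, the phosphomevalonate kinase, was at 6.45 ± 0.24 (SD, n = 4) against 7.37 ± 0.33 (SD, n = 5), a difference of −0.86 (adjusted p = 0.016). Fdft1, the squalene synthase, differed by −0.36 (adjusted p = 0.0255). Pmvk was not called without EG 2i line 3 or ES 2i line 2 (0.052 and 0.0676), and Fdft1 without any 1 of 5 lines (0.0506 to 0.0843). After quantile normalization was applied again 1 glutathione and 1 cholesterol gene was called, and after median centring 5 and 3.

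Imprinted genes were counted by the parental allele they are expressed from. Of 25 paternally expressed genes 2 were higher, against 1.2% of all genes, and 0 lower. Their median was 0.13 and 18 of 25 were positive, against 10150 of 19938 of all genes. Of 26 maternally expressed genes 0 were called, with a median of −0.123. Quantile normalization applied again also called Impact higher (0.56, adjusted p = 0.0473), and median centring Copg2 lower (−0.39, adjusted p = 0.0366). Peg12 was at 6.09, 6.16, 6.06 and 5.84 in EG 2i and at 5.32, 5.11, 5.39, 5.24 and 5.24 in ES 2i, without overlap, a difference of 0.72 (SE 0.10, adjusted p = 0.00115, limma). Ndn, a gene of the same imprinted domain on chromosome 7, was at 7.73, 8.42, 8.52 and 7.69 against 7.51, 6.85, 7.90, 6.87 and 6.57. ES 2i line 3 lay within the EG range, and the difference was 0.76 (SE 0.18, adjusted p = 0.0225). Ndn also differed by sex in 2i (female minus male 0.83, limma adjusted p = 0.00121). Without the sex term it was not called (0.93, adjusted p = 0.101). Ndn lost its call without any 1 of 5 lines (0.0513 to 0.0772), while Peg12 kept it without each line in turn. Mest, Zdbf2 and Peg3 had differences of 0.83, 0.82 and 0.53 that did not pass (adjusted p = 0.0742, 0.104 and 0.078).

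Genes of DNA methylation did not pass the test: 0 of 8 writers and their cofactors were called, with a median of −0.114. Dnmt1, the maintenance methyltransferase, was at 9.55, 9.46, 9.48 and 9.70 in EG 2i and at 9.78, 9.88, 10.03, 9.81 and 9.84 in ES 2i. All EG lines were below all ES lines, and the difference of −0.27 had an adjusted p of 0.0608 (limma). After centring arrays on their medians Dnmt1 was called (−0.30, adjusted p = 0.0394). Dnmt3l, a cofactor of the de novo methyltransferases, had the widest spread: 6.58, 6.54, 5.95 and 7.47 against 6.57, 8.0, 7.47, 9.95 and 9.79. ES 2i line 1 lay within the EG range and ES 2i lines 4 and 5 far above it, and the difference of −1.20 (−0.24 with only the 9 arrays in the fit) had an adjusted p of 0.247. Dnmt3a (0.58), Dnmt3b (0.00) and Uhrf1 (−0.15) had adjusted p of 0.372, 0.998 and 0.359. In the TET and demethylation list 1 of 12 was lower, against 2.52% of all genes. It was the cytidine deaminase Apobec1 (−0.62, adjusted p = 0.00723, ES 2i line 5 at 6.33 within the EG range of 6.25 to 6.63), which was not called without the batch term (−0.39, 0.0837). Tet1 and Tet2 had differences of −0.15 and 0.08 (adjusted p = 0.538 and 0.912).

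Germ cell genes were not called. Of 20 germline genes known to depend on promoter methylation 0 passed the test, with a median of 0.17 and 14 of 20 positive, and of 12 primordial germ cell genes 0 passed, with a median of 0.113. Dazl, a germ cell RNA-binding protein, was at 9.53, 10.51, 10.47 and 9.73 in EG 2i and at 9.18, 8.30, 9.20, 8.70 and 8.01 in ES 2i. The groups did not overlap, yet the fitted difference of 0.93 (SE 0.29) had an adjusted p of 0.0792 (limma). Without EG 2i line 1 Dazl was called (1.15, adjusted p = 0.0233). Dppa3, a maternal and germ cell factor, differed by 0.90 (adjusted p = 0.0503) and was called after quantile normalization was applied again (0.98, adjusted p = 0.04). Prdm14, a regulator of germ cell and naive pluripotency genes, was at 9.09 ± 0.45 (SD, n = 4) and 8.54 ± 0.37 (SD, n = 5), a fitted difference of 0.24 (adjusted p = 0.669).

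In the core pluripotency list 1 of 16 was higher, against 1.2% of all genes, and 0 lower, with a median of 0.078. It was Dppa2, which encodes a chromatin protein that keeps bivalent promoters open. Dppa2 stood at 10.80, 10.81, 10.79 and 10.67 in EG 2i and at 9.53, 10.04, 9.95, 9.16 and 9.46 in ES 2i. The EG lines lay close together and above every ES line, and the difference was 1.00 (SE 0.17, adjusted p = 0.00442, limma). After quantile normalization was applied again Dppa3 was called as well, and after median centring Utf1 was called lower (−0.59, adjusted p = 0.0392). Of 12 naive pluripotency factors 0 were called, with a median of 0.072. In the primed epiblast list 1 of 11 was higher, Zic2.

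ERK target genes held 2 of 24 higher, against 1.2% of all genes, and 0 lower. Their median was 0.15 and 18 of 24 were positive, against 10150 of 19938 of all genes. A count of 2 is too small to describe the list. Dusp9, an X-linked phosphatase that inactivates ERK, was at 8.57, 9.71, 10.13 and 8.78 in EG 2i and at 8.08, 7.73, 8.77, 7.49 and 7.08 in ES 2i. The highest lines of each group were labelled female, and EG 2i line 1 fell below ES 2i line 3. The difference was 1.14 (SE 0.28, adjusted p = 0.0298, limma), and with the X-linked level of each line in place of the sex label it was 0.89 (adjusted p = 0.00315). Without the sex term Dusp9 was not called (1.33, adjusted p = 0.0728). Dusp5, another ERK phosphatase, differed by 0.53 (adjusted p = 0.0298). Dusp9 lost its call without any 1 of 5 lines (0.0536 to 0.14), and Dusp5 without EG 2i line 2, EG 2i line 3 or ES 2i line 1 (0.065 to 0.153). After quantile normalization was applied again 1 of the 24 was called.

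Other lists held few calls, beside 1.2% of all genes called higher and 2.52% lower. Counts of 1 or 2 are too small to describe a list. Of 12 neural lineage genes 2 were higher, the tubulin gene Tubb3 (0.87, adjusted p = 0.0123) and the intermediate filament gene Nes (0.88, 0.0201), at levels of 6.62 ± 0.19 (SD, n = 4) and 5.79 ± 0.25 (SD, n = 4) in EG 2i. Tubb3 was not called without ES 2i line 1 (0.0582), nor Nes without EG 2i line 3 or ES 2i line 1 (0.0589 and 0.0506). Of 33 Hox genes 2 were higher, Hoxb6 (0.40, adjusted p = 0.0142) and Hoxa3 (0.24, 0.0379), at means of 5.36 ± 0.21 and 4.67 ± 0.09 in EG 2i, and Hoxa3 was not called under either other scaling. Every Hoxa3 value of both groups lay below 4.88, the background level above, so its difference is one between background levels. Of 14 retrovirus silencing genes 1 was higher, Zfp809, a zinc finger repressor of proviruses, at 9.82, 9.68, 9.61 and 9.41 against 9.04, 8.76, 8.82, 9.07 and 9.03. Its groups did not overlap, and its difference of 0.72 (SE 0.11, adjusted p = 0.00211) was also called in batch 1 arrays alone (0.0202). Of 15 primitive endoderm genes 2 were lower, the laminin chains Lamb1 (−0.90, adjusted p = 0.049) and Lamc1 (−0.57, 0.0453), and after quantile normalization was applied again 0 were. The median of this list was −0.25, with 9 of 15 negative. The endoderm regulators Gata4 and Gata6 had differences of 0.01 and 0.12 that did not pass. Of 20 interferon response genes 2 were lower, the apoptosis gene Xaf1 (−1.20, adjusted p = 0.0315) and the signal transducer Stat2 (−0.71, 0.032). After quantile normalization was applied again 1 interferon gene was called. Calls were lost without any 1 of 8 lines for Lamc1 (0.0502 to 0.16), 6 for Lamb1 (0.0621 to 0.142), 6 for Hoxa3 (0.0553 to 0.127), 3 for Xaf1 (0.0552 to 0.0939) and 3 for Stat2 (0.0678 to 0.0961), and for Hoxb6 without ES 2i line 1 (0.0659).

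Of 18 targets of p53, the stress-responsive tumour suppressor, 1 was higher, Trp53inp1 (0.47, adjusted p = 0.0427, limma), with a list median of 0.278 and 15 of 18 positive. Among all genes 1.2% were called higher and 2.52% lower, and 10150 of 19938 were positive. After quantile normalization was applied again 4 were called, and after median centring 0. The cell cycle gene Ccne1, a cyclin of the entry into DNA replication, was the called member of 15 proliferation genes (0.34, adjusted p = 0.0418). Nlrc5, an activator of MHC class I genes, was that of 10 antigen presentation genes (0.30, 0.0497), but the mean of its 19 probe sets differed by 0.05 (adjusted p = 0.642). Median centring called neither Ccne1 nor Nlrc5 (0.0704 and 0.0731). The called member was Pfkm, a phosphofructokinase, among 24 hypoxia and glycolysis genes (−0.60, 0.0279). The calls ended without any 1 of 6 lines for Trp53inp1 (0.0584 to 0.226), 7 for Ccne1 (0.0548 to 0.123), 8 for Nlrc5 (0.0531 to 0.124) and 3 for Pfkm (0.0512 to 0.0683). No member was called in the lists of Wnt (16), LIF-STAT3 (12), BMP and SMAD (10) or Nodal (13) genes, whose medians were 0.126, −0.119, −0.102 and −0.135. After median centring Il6st, a subunit of the LIF receptor, was called lower (−0.44, adjusted p = 0.0434).

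**Figure D3:**
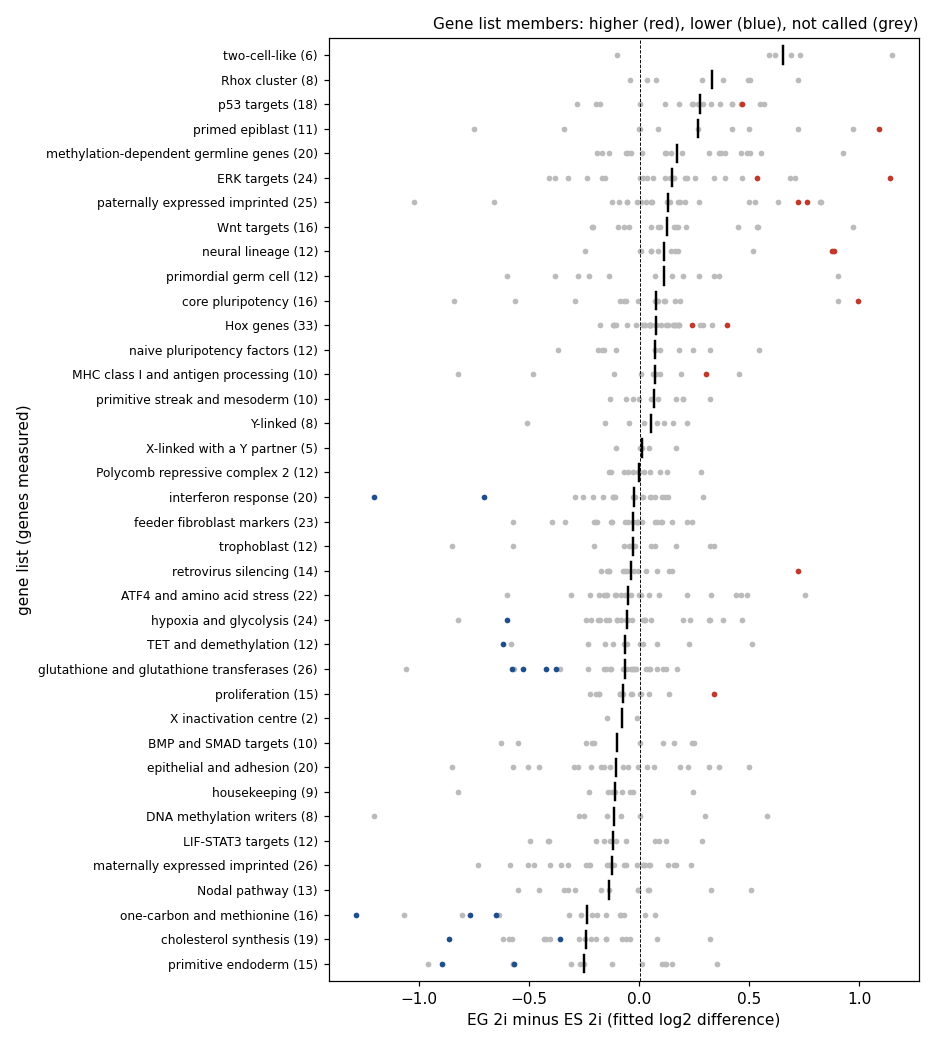
Fitted log2 difference between EG 2i and ES 2i (horizontal axis) of each measured member of the 38 gene lists (vertical axis, number measured in brackets), with called higher members red, called lower members blue, members not called grey and the list median as a black bar. The primitive endoderm (−0.25), cholesterol (−0.243) and one-carbon (−0.238) lists have the lowest medians, with called members on that side only. The two-cell-like list (median 0.655) lies to the right with no called member.

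The lines were not uniform within a group. Over the 9 arrays 40.1% of the variance lay on principal component 1, with EG 2i lines from −29.9 to −1.1 and ES 2i lines from −2.3 to 26.2, so EG 2i line 4 and ES 2i line 3 met in the middle. In each group the lines labelled female lay lower on it than those labelled male. They were at −29.9 to −10.8 against −1.1 in EG 2i, and at −2.3 and 6.2 against 13.4 to 26.2 in ES 2i. Correlations were 0.984 to 0.994 among EG lines, 0.979 to 0.996 among ES lines and 0.973 to 0.989 between the groups. X-linked genes differed most. The median deviation of X-linked genes from the 9-array mean was −0.209, 0.413, 0.468 and −0.263 in EG 2i lines 1 to 4 and 0.109, −0.221, 0.376, −0.302 and −0.287 in ES 2i lines 1 to 5. EG 2i line 1, labelled female and with Eif2s3y at 4.61, had an X-linked level close to that of the male lines, and ES 2i line 1, also labelled female, lay in between. Xist, the RNA that silences an X chromosome, was at 4.67 ± 0.11 (SD, n = 4) and 4.63 ± 0.25 (SD, n = 5), near background in both groups.

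The mean of X-linked genes was higher by 0.14 in EG 2i lines, a difference within the spread of lines (two-sided exact permutation test, p = 0.262, smallest possible p 0.00794 over 126 splits). The test took no account of sex, and 3 of 4 EG 2i but 2 of 5 ES 2i lines were labelled female. Both the difference and the spread therefore include the unequal sexes. Of 739 X-linked genes 12 were called, or 1.62%, against 3.72% of all genes. The 12 were 10 higher, among them Porcn, Otud6a and Dusp9, and 2 lower. Among all genes 1.2% were called higher, near the X-linked share, and 2.52% lower. On chromosome 6, which carries Nod1, the median deviation was 0.276 in ES 2i line 4 and 0.108 in ES 2i line 5, and between −0.102 and −0.006 in the other 7 lines. Nod1 itself was at 5.83 and 5.96 in these lines, below ES 2i lines 1 and 2. Of 1099 genes of the chromosome 36 were called (3.28%, against 3.72% of all genes). With the X-linked level in place of the sex label 832 genes were called, and without EG 2i line 1 and ES 2i line 4 together 652, settings chosen after the data were seen.

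**Figure D4:**
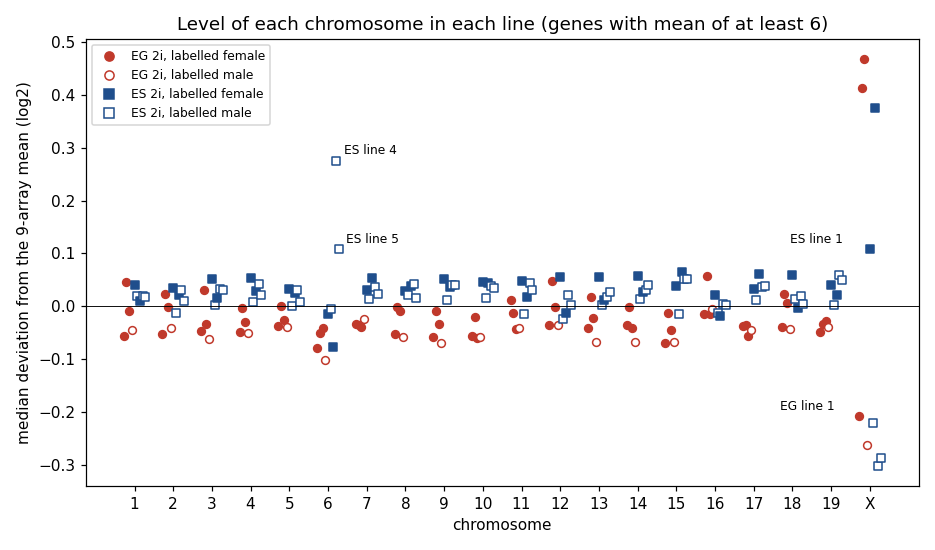
Median deviation from the 9-array mean (vertical axis, log2) of the genes of each chromosome (horizontal axis, genes with a mean of at least 6) in each line, with filled symbols for lines labelled female and open symbols for lines labelled male. The X chromosome spreads from −0.302 to 0.468, with EG 2i line 1 among the males at −0.209, and chromosome 6 is raised in ES 2i line 4 at 0.276.

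Called genes were found on every autosome and on the X chromosome. In the reference gene order 0 runs of 3 or more neighbouring genes were called in the same direction, and 40 neighbouring pairs were. The number of such pairs under random placement was not computed, so whether called genes cluster along the chromosomes was not tested. Next to Nod1 (chr6:54923942-54972674 on GRCm38.p6), Ggct, an enzyme of glutathione breakdown, was also lower (−0.66, adjusted p = 0.0061, limma). Gars, beyond Ggct, had −0.18 (0.0864), and Znrf2, on the other side of Nod1, −0.05 (0.891).

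The EG 2is lines, set against the same 5 ES 2i arrays, gave 9 called genes (0.0451%), all lower, among them Nod1 and Apobec1. Since these comparisons share the ES 2i arrays, the values are given side by side only. Nod1 differed by −2.47 for EG 2i and −2.39 for EG 2is (adjusted p = 1.58e-06, limma), and its level in EG 2is lines was 4.38, 4.40, 4.90 and 4.58. Apobec1 differed by −0.62 and −0.76 (adjusted p = 0.0141). Dpp4 differed by 1.84 and 1.16 (adjusted p = 0.184), Susd2 by −2.07 and −0.89 (0.448), Adgre5 by 1.23 and 1.26 (0.207) and Aldh1l1 by −1.37 and −0.14 (0.896). Susd2 stood at 8.82, 7.87, 8.33 and 7.16 in EG 2is lines, reaching the ES range with line 1, and Aldh1l1 at 8.35, 8.26, 8.21 and 7.47. Of the 24 leading genes 1 was called for EG 2is (Nod1). Directly between EG 2i and EG 2is lines limma called 0 genes, with 2116 at an unadjusted p under 0.05 (0% called).

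In FCS, EG and ES lines differed in 2 called genes (0.01%), Nod1 (−2.15, adjusted p = 1.11e-05, limma) and the interferon-induced GTPase gene Gbp2b. Nod1 stood at 4.46, 4.57, 4.39 and 4.13 in EG FCS lines and at 6.21, 6.74, 5.47, 5.35 and 5.41 in ES FCS lines, without overlap. Dpp4 was at 7.13 ± 0.33 (SD, n = 4) and 7.16 ± 0.22 (SD, n = 5) in FCS, and Susd2 at 7.32 ± 0.64 and 7.27 ± 0.28. A test of whether the EG to ES difference itself differed between 2i and FCS called 287 genes (1.44%), among them 19 of the 24 leading genes. These were chosen on the 2i difference, which is part of that contrast, so the count is a description, and with batch 1 arrays alone the test called 0 genes (limma, 1960 at an unadjusted p under 0.05). Cbs, for example, differed by −1.29 in 2i and 0.07 in FCS, and Nod1 was not called in this test (−0.32, adjusted p = 0.556).

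**Figure D5:**
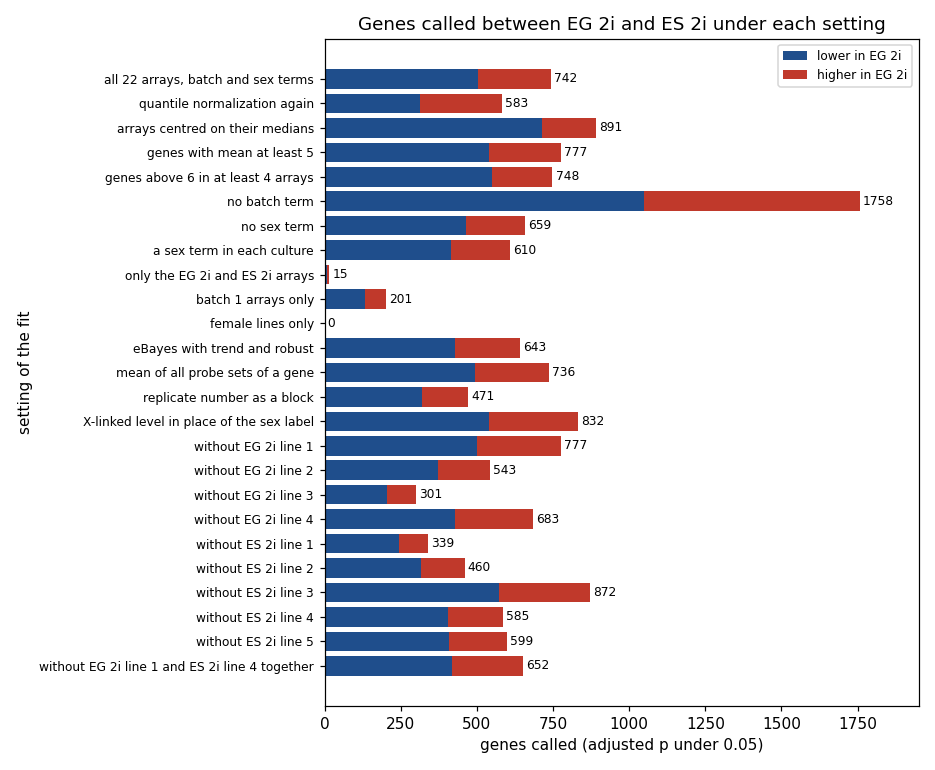
Number of genes called between EG 2i and ES 2i (horizontal axis, bars from 0) under each setting of the fit (vertical axis), lower in EG 2i in blue and higher in red. The count of 742 went to 1758 without the batch term, to 201 with batch 1 arrays alone and to 15 with only the 9 arrays, and it ranged from 301 to 872 when 1 line was left out.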

How the data were processed

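RNA of each line was hybridised to 1 Affymetrix gene array. The authors deposited log2 values made with RMA in Affymetrix Expression Console, per the submitters' processing notes, which also name limma; RMA corrects background, normalizes by quantiles and summarizes probes, and no source used here states whether batches were adjusted. Of 28853 probe sets 21789 had 1 gene symbol, 1621 several and 5443 none, and 21698 matched the mouse gene table by Entrez ID. Where several probe sets named a gene, the one with the highest mean over all arrays was kept and 1851 were left out. limma 3.58.1 in R 4.3.3 (lmFit, eBayes) was fitted to 22 arrays with group, batch and sex, with Benjamini-Hochberg adjustment over 19938 genes, two-sided, and the script was tested on simulated data. SE is limma's standard error on the log2 scale. Named genes were the 12 largest called rises and falls without overlap, up to 3 called members of each list by adjusted p, and a standing set of pluripotency, methylation and germ cell genes; others were named after their values were seen. Group members and the 38 gene lists were chosen with earlier results of these data known. Alternatives changed the scaling, filters, terms, arrays, prior and probe set rule. Python 3.11.15 with matplotlib 3.10.9 drew the figures.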

Additional observations from a re-analysis of the deposited data

Results flagged for a closer look

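A line stood apart from the others of its group in 4 places, by a test that chance passes in about 1 of 20 groups. The test was applied in both groups to each of the 24 leading genes and to the median of each chromosome. With that many groups checked, several passes are expected by chance. The 4 are listed as a description, and whether they exceed chance was not tested. Dpp4 was at 8.11 in ES 2i line 2, above the other ES 2i lines, and Obi1 at 6.48 in EG 2i line 4, below the other EG 2i lines. The chromosome medians of EG 2i line 2 stood above those of the other EG 2i lines on chromosome 10 (−0.02) and chromosome 16 (0.06).

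For 19 leading genes the EG to ES difference differed between 2i and FCS in the limma test of that contrast, given here as the 2i difference minus the FCS difference. The genes were chosen on the 2i difference, and with batch 1 arrays alone no gene was called (1960 at an unadjusted p under 0.05). Among rises it was 2.25 for Dpp4 (adjusted p = 0.00826), 1.81 for Adgre5 (0.0394), 1.66 for Porcn (0.0341), 1.65 for Prkch (0.0167), 1.63 for Slc43a1 (0.00246), 1.51 for Zic2 (0.0232), 1.45 for Neto2 (0.0142), 1.36 for Arhgef26 (0.0418), 1.27 for Pde3b (0.0343) and 1.19 for Obi1 (0.02). Among falls it was −1.95 for Susd2 (0.0418), −1.52 for Apela (0.00776), −1.38 for Sfrp1 (0.02), −1.37 for Lrrc31 (0.0438), −1.36 for Cbs (0.0184), −1.32 for Cnn2 (0.0362), −1.32 for Aldh1l1 (0.0283), −1.28 for Myo1c (0.0116) and −1.2 for Pla1a (0.0148).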

How the results depend on the processing

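The count of 742 called genes went to 1758 without the batch term, 201 with batch 1 arrays only, 15 with only the EG 2i and ES 2i arrays and 0 with female lines only (limma, 2282 at an unadjusted p under 0.05). Leaving out 1 line at a time gave 301 (without EG 2i line 3) to 872 (without ES 2i line 3), with 339 without ES 2i line 1 and 460 without ES 2i line 2. The 24 leading genes kept their direction under every setting that tested them. With the replicate number as a block 471 genes were called, 369 of them shared with the 742; EG 2i and ES 2i lines of the same number correlated at −0.111, 0.023, 0.237 and 0.14, so these numbers do not pair them. ES lines in FCS and in 2i that share a number also share sex and batch and correlated at −0.013 to 0.241; with the ES number as a random block, chosen after the data were seen, 650 genes were called, all 650 among the 742, and Adgre5, Nlrc5, Lamb1, Lamc1 and Nqo1 were not (adjusted p = 0.0502 to 0.0556). Other comparisons were recomputed under settings chosen after the data were seen. EG 2is against ES 2i gave 33 genes without the batch term and 19 with the X-linked level, against 9. EG FCS against ES FCS gave 6 without the batch term and 1 with batch 1 arrays, against 2. Origin by culture gave 0 with batch 1 arrays and 438 with the X-linked level, against 287. The mean of both EG 2i groups against ES 2i gave 326 genes, 1122 without the batch term and 49 with batch 1 arrays. The causes were not tested. The X-linked difference of 0.14 ranged from 0.083 to 0.201 without 1 line. Values near background, as for Nod1 in EG lines and Prkch in ES 2i lines, limit how large a difference can be measured. Of the 742 called genes 73 had an EG 2i or ES 2i mean under 5.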

Other observations

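A further 41 genes differed by at least 2-fold in the fit without passing the test, 23 higher and 18 lower, and the following were chosen after their values were seen. EG 2i line 1 stood highest for Pramel20, a PRAME family gene, at 9.83 against 6.90, 6.63 and 5.96 in EG 2i lines 2 to 4 and 4.57 to 5.28 in ES 2i lines (difference 2.01, limma adjusted p = 0.149). The same line was highest for Pramel19 (8.17), Tmem92 (9.24) and Tdpoz3 (8.34), with adjusted p of 0.0989, 0.16 and 0.252. For these 4 genes all EG 2i lines were above all ES 2i lines. The two-cell-like list, genes switched on as the embryonic genome first becomes active, had 0 of 6 called, a median of 0.655 and a mean level of 5.72 to 7.05 in EG 2i and 5.23 to 5.71 in ES 2i lines.

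H2ac1, a histone H2A gene, was at 11.33, 11.38, 11.72 and 9.35 in EG 2i and at 10.35, 8.65, 9.17, 9.15 and 9.23 in ES 2i, so the lines labelled female in EG 2i were the 3 highest (difference 1.31, adjusted p = 0.0807). Slc27a2, a fatty acid transport gene, was at 8.22, 7.27, 7.34 and 7.46 against 6.21, 5.65, 7.59, 5.05 and 5.86, with ES 2i line 3 within the EG range (1.78, adjusted p = 0.0564). Adh1, an alcohol dehydrogenase, was at 5.71, 6.90, 5.72 and 5.68 against 6.56, 7.60, 6.67, 8.56 and 7.78 (−1.37, adjusted p = 0.0631).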
